A study of Mus musculus with 6 samples.

Results

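The genes of the proteasome and immunoproteasome were described here in monocytic myeloid-derived suppressor cells (M-MDSCs) with and without the kinase mTOR. Members were the genes whose symbol starts with Psma to Psmg followed by a number, pseudogenes left out, with a summed count of at least 60 over the 6 libraries. This gave 49 of the 34745 genes in the count table. All 49 passed the filter on low counts that left 12537 genes for testing. Of 50 matching symbols, 1 was left out: Psmb11, a core subunit known from the thymus, had a summed count of 0. The members nearest above the limit were Psma8, Psmc3ip and Psmg4, with summed counts of 297, 318 and 362. Psmc3ip matched by its symbol, but it encodes a partner of meiotic recombination enzymes and not a proteasome subunit.

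Both groups were mouse cells of the C57BL/6 strain, with 3 libraries each. The mTOR-/- M-MDSCs came from Lyz-mTOR mice, in which a Cre recombinase under the lysozyme promoter acts on mTOR flox/flox alleles in myeloid cells. The WT M-MDSCs came from C57BL/6 mice. For the Lyz-Cre and mTOR flox/flox mice, the methods of the study give no background strain. The study's methods describe the WT mice as bought from a supplier, so Cre and the flox alleles were carried by the mTOR-/- group and are not described for WT, and the genotype cannot be told apart from mouse source. Bone marrow cells of both groups were cultured with GM-CSF and IL-6 and sorted as CD11b+ Ly6G- Ly6C high cells. The age of the mice was not given in the sources used here. The study's methods give n = 3 for the mice, but the labels tie no library to a mouse, so the p-values measure the spread between these libraries, which may in part be technical.

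The proteasome is the main protease for proteins tagged with ubiquitin. Its core particle is a barrel of stacked rings of alpha and beta subunits, and the proteolytic sites sit inside on the beta subunits Psmb5 (chymotrypsin-like), Psmb6 (caspase-like) and Psmb7 (trypsin-like). A regulatory particle of Psmc ATPases and Psmd subunits binds, unfolds and feeds in the substrate. Interferons induce Psmb8, Psmb9 and Psmb10, which replace Psmb5, Psmb6 and Psmb7 in newly built cores and give the immunoproteasome, known for its part in making peptides for MHC class I; immune cells often express these subunits without added interferon. The transcription factor Nfe2l1 is known to raise proteasome subunit genes when proteasome capacity is low.

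The promoter windows of the 3 members that passed the test (Psmb5, Psmb6 and Psmd8) and of Psmb8, the immunoproteasome counterpart of Psmb5, are given first, because the results turn on these genes. They are the 250 bases before the RefSeq start on GRCm38.p6, written 5′ to 3′ on the strand of the gene. Capitals mark a match to TGACNNNGC, the core of the antioxidant response element that Nfe2l1 and Nfe2l2 are known to bind, or to TTCNNNGAA, the gamma-activated site known from interferon signalling.
Psmb5, chr14:54617996-54618245, minus strand: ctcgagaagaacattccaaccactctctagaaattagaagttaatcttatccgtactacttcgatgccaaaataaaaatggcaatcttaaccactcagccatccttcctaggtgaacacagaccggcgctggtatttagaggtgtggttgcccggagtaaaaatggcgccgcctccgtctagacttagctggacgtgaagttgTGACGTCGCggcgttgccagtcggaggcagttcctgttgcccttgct
Psmb6, chr11:70525107-70525356, plus strand: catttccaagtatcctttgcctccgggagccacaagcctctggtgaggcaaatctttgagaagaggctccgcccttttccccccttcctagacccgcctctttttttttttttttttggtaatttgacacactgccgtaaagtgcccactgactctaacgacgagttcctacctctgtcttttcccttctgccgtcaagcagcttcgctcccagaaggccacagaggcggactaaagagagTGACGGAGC
Psmd8, chr7:29180674-29180923, minus strand: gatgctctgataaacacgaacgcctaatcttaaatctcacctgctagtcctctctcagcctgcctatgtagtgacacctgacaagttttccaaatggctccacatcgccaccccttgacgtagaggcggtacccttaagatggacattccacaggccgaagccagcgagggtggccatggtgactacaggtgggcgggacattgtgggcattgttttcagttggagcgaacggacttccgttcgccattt
Psmb8, chr17:34197945-34198194, plus strand: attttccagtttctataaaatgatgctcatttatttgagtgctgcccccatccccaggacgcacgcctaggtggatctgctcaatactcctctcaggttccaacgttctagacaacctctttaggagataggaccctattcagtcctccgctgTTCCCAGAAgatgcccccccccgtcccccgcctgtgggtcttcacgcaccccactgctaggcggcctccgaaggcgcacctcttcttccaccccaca
Psmb5 held TGACNNNGC at bases -47 to -39 from the start and Psmb6 at bases -9 to -1. The window of Psmd8 held none of the motifs searched. That of Psmb8 held TTCNNNGAA at bases -97 to -89, and this window lies inside the Psmb8 locus of the deposited table and not before it. RefSeq windows were found for 41 of the 49 members (44 windows). On either strand, TGACNNNGC was in 11.4% of the members' windows and in 10.2% of all 32851 windows of the same length, with Psmc6, Psmd9 and Psmd12 as the other members. TTCNNNGAA was in 4.55% of the members' windows (Psmb8 and Psmg1) and 7.02% of all. The interferon regulatory factor motif of a pair of GAAA repeats with any 2 bases between them was in 6.82% (Psmb3, Psmd4 and Psmd9) and 2.98%. These are matches of letters and not measured binding.

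The depth was 12317507 to 12903191 counts per mTOR-/- library and 14066578 to 14768126 per WT library. Mtor itself did not separate the groups. It had 883, 983 and 908 counts in mTOR-/- and 980, 875 and 929 in WT (log2 fold change 0.15, SE 0.11, adjusted p = 0.442, edgeR). Counts over the whole gene do not show whether the floxed exons are missing, so the labels could not be checked in this way. The study itself reports PCR genotyping of the mice and a check of mTOR depletion in MDSCs. Itgam, which encodes CD11b, was present in every library, and Ly6c2 had 891 to 1363 counts in mTOR-/- and 1691 to 3169 in WT. Marker genes of other cells moved with the genotype. Of 4 mast cell and basophil markers, 2 were called lower in mTOR-/- (Mcpt8 and Cpa3). The 4 together summed to 134 to 189 CPM (counts scaled to a common library size) in mTOR-/- and 677 to 839 in WT. Most of this sum was Cpa3, with a mean of 135 CPM in mTOR-/- and 694 in WT. Ms4a2 had a log2 fold change of -0.65 and Fcer1a of 0.45, and neither was called. The summed level of 6 neutrophil markers was 326 to 361 CPM against 405 to 568, with Ly6g called higher and Ngp and Ltf lower. For 5 dendritic cell markers it was 193 to 264 against 66.9 to 152, with Ccr7 called higher. Most of this sum was Itgax, with a mean of 172 CPM in mTOR-/- and 90.7 in WT (log2 fold change 0.92, not called). Flt3 was at -0.46 and Zbtb46 at 0.81, neither called, and Cd209a had 0 to 5 counts. For 5 macrophage markers the summed level was 548 to 657 against 659 to 737. Most of this sum was Adgre1, with a mean of 482 CPM in mTOR-/- and 614 in WT (log2 fold change -0.35, not called). The other tested macrophage markers lay higher in mTOR-/-. Clec4f was called, and Vcam1 at 0.49 and Mertk at 1.00 (2 to 19 counts) were not. The 6 monocytic markers summed to 1354 to 1789 against 1442 to 1603, with Csf1r and Cd14 called higher and Ly6c2 lower. The 5 lymphocyte markers summed to 3.26 to 4.97 against 2.46 to 4.83, and Cd3e was at 0 in every library. The part of these cells in the results below was not tested. In such bulk libraries, fewer cells of a type and less RNA per cell cannot be told apart.

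Most proteasome genes lay slightly lower in mTOR-/- M-MDSCs, and few differences passed the test. The log2 fold change, mTOR-/- over WT, was below 0 for 42 of 49 members (85.7%), compared with 49.4% of all tested genes. The median of the members was -0.16, that is 10.8% lower, and the median of all tested genes was 0.00492. Of all tested genes, 4.04% were called at an adjusted p under 0.05. Psmb5, Psmb6 and Psmd8 fell at this limit, a call made in the lower direction for 1.87% of tested genes, and no member was called higher, against a background of 2.18%. No member was called with a fold of at least 2, the limit for a DEG (1.69% of tested genes). At an unadjusted p under 0.05, 14 members were lower (background 9.52%) and 1, Psma8, was higher. Of the 12537 tested genes, 2657 were under that p, 1193 of them lower and the rest higher. In 21 members all 3 mTOR-/- libraries lay below all 3 WT libraries (background 13.9%). The reverse held for Psma8 alone (background 14.5%), and the groups overlapped in 27. Without Psmc3ip the median was also -0.16.

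**Figure D1:**
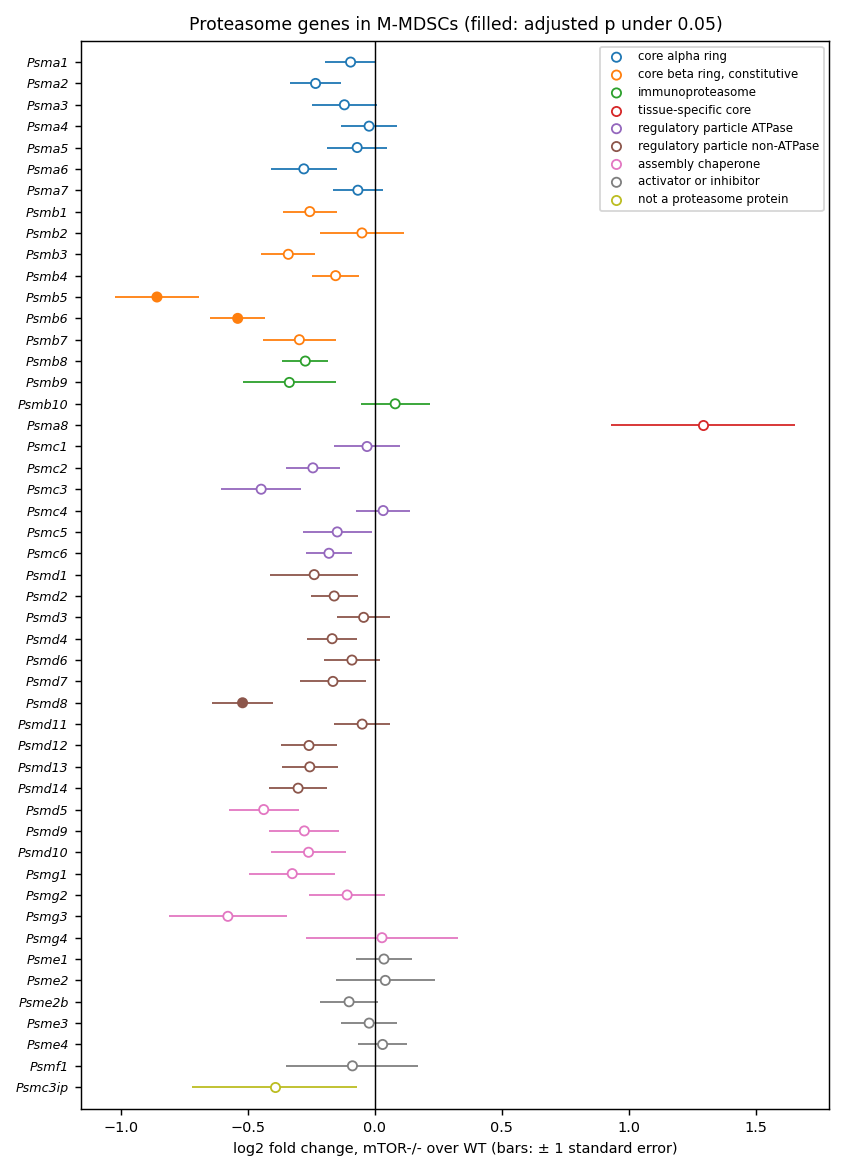
Log2 fold change (mTOR-/- over WT, edgeR) on the horizontal axis for each of the 49 members, grouped by role; the bars are ± 1 SE and filled points passed an adjusted p of 0.05. All but 7 points lie left of 0, and Psmb5, Psmb6 and Psmd8 are the 3 filled points.

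The summed counts of the members gave the same order of groups. Their share of each library was 0.396%, 0.419% and 0.357% of counts for mTOR-/- and 0.445%, 0.428% and 0.451% for WT. The Wilson 95% intervals reached at most 0.00355 percentage points from these shares and cover counting error only, so the distances between libraries were larger than counting error. The means were 0.391% ± 0.0313 (SD, n = 3) and 0.441% ± 0.0118, and the lowest WT library lay above the highest mTOR-/- library. The alpha and constitutive beta subunits together took 0.119% ± 0.0108 in mTOR-/- and 0.138% ± 0.00319 in WT. The regulatory particle took 0.177% ± 0.0162 and 0.202% ± 0.00407. In both sums the groups did not overlap.

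The lowest values came mostly from 1 library. mTOR-/- replicate 3 had the lowest level of its group in 35 of 49 members (71.4%), while it was lowest in 37.5% of tested genes. It was the lowest of all 6 libraries in 30 members. Over all genes it also stood apart, with 13889 genes detected against 14709 to 15120 in the others, and with Pearson's r across genes of 0.955 and 0.952 to mTOR-/- replicates 1 and 2, which had 0.973 to each other. The median distance of the members from the WT mean was -0.18, -0.09 and -0.27 on the log2 scale in mTOR-/- replicates 1, 2 and 3. It was 0.00, -0.04 and 0.05 in the WT replicates. The mTOR-/- libraries lay below the WT mean in 39, 32 and 44 of 49 members and the WT libraries in 24, 33 and 11, so on this count mTOR-/- replicate 2 did not stand apart from WT replicate 2. Without replicate 3, 40 members were below 0, the median log2 fold change was -0.14, and Psmb5, Psmb6 and Psmd8 were again called. The log2 fold changes of these 3 moved towards 0 without it, from -0.86, -0.54 and -0.52 to -0.70, -0.49 and -0.41. Psma6, Psmb1 and Psmc3 were among the other members that did so, from -0.28, -0.26 and -0.45 to -0.16, -0.17 and -0.29. Psmd5 moved the other way, from -0.44 to -0.47.

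**Figure D2:**
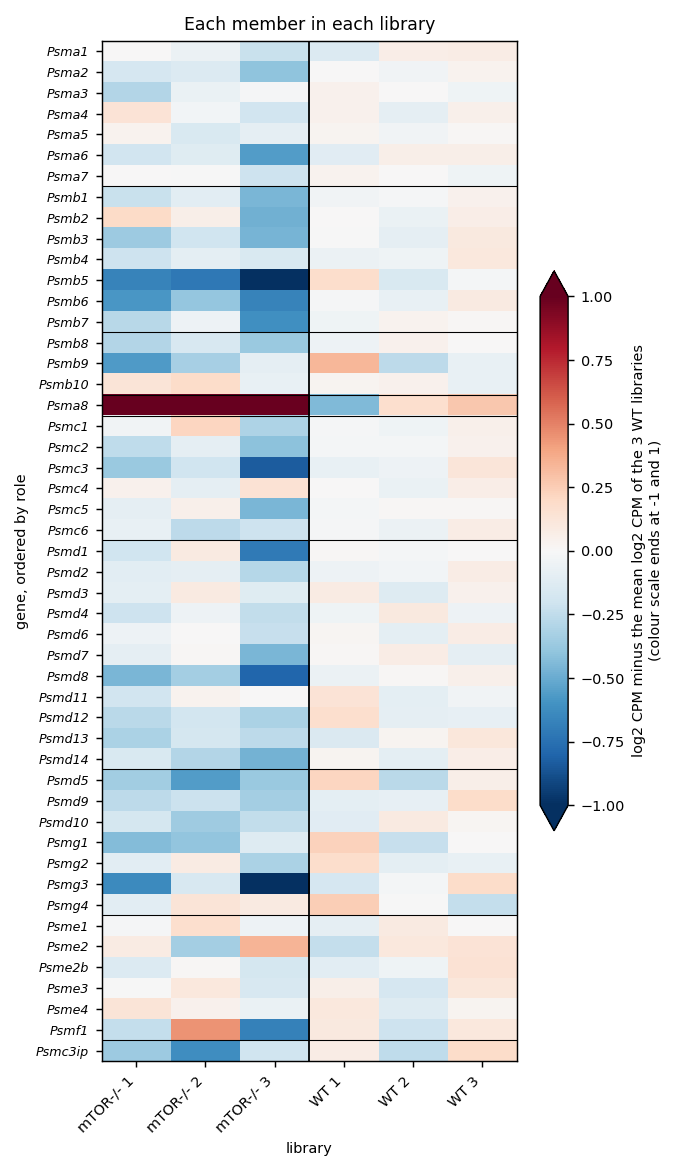
Colour shows the log2 difference of each library's level from the WT mean, for the 49 members (rows) in the 3 mTOR-/- and the 3 WT libraries (columns), blue below and red above, with the scale ending at -1 and 1. The mTOR-/- columns have medians of -0.18, -0.09 and -0.27, and Psma8 is the red row in all 3.

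In the core particle, the called members were constitutive beta subunits. All 7 constitutive beta subunits were below 0, with a median log2 fold change of -0.30, and in 6 of them the groups did not overlap. Over all tested genes, 49.4% were below 0, and in 13.9% all mTOR-/- libraries lay below all WT libraries. These shares are the background for every group of subunits described below. Psmb5, the chymotrypsin-like subunit (ENSMUSG00000022193, chromosome 14, 54614120 to 54617995 on mm10), had 55.9, 54.1 and 37.5 CPM after TMM normalization in the mTOR-/- libraries. In WT it had 100.2, 79.7 and 87.3 CPM. Every mTOR-/- library was below every WT library, and the raw counts behind these values were 490 to 701 and 1167 to 1410. Psmb5 fell by 44.8% (log2 fold change -0.86, SE 0.16, adjusted p = 0.0229, edgeR). The call was lost without any 1 of the WT replicates, with adjusted p = 0.103, 0.0553 and 0.0882 without replicates 1, 2 and 3, and log2 fold changes of -0.77, -0.93 and -0.87. The gene shares 109 exonic bases, 12.1% of its exons, with the microRNA gene Mir686 on the same strand.

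Psmb6, the caspase-like subunit (ENSMUSG00000018286, chromosome 11, 70525367 to 70527858), had 74.0, 84.9 and 69.8 CPM in mTOR-/- and 109.8, 105.1 and 117.7 CPM in WT. The highest mTOR-/- library was thus below the lowest WT library. Psmb6 fell by 31.2% (log2 fold change -0.54, SE 0.11, adjusted p = 0.0277, edgeR). This call was lost without mTOR-/- replicate 1 (adjusted p = 0.0858) and without WT replicate 1, 2 or 3 (0.104, 0.0735 and 0.141). Psmb7, the trypsin-like subunit (ENSMUSG00000026750, chromosome 2, 38588036 to 38644087), had 56.5, 66.1 and 44.9 CPM in mTOR-/- and 66.4, 70.3 and 69.0 in WT. Its groups did not overlap by a narrow margin, and it did not pass the test (log2 fold change -0.30, SE 0.14, adjusted p = 0.272). The value was -0.17 without mTOR-/- replicate 3 and -0.45 without mTOR-/- replicate 2. Psmb7 shares 405 exonic bases with Nek6 on the opposite strand, and the strand setting of the counting was not given in the sources used here.

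The beta subunits without a proteolytic site were not called. Psmb3 had 90.1, 100.7 and 83.7 CPM in mTOR-/- and 115.2, 108.7 and 123.7 in WT (log2 fold change -0.34, adjusted p = 0.112). Psmb1 had 136.0, 147.7 and 115.4 CPM against 155.4, 157.2 and 163.9 (-0.26, adjusted p = 0.211). For both, the groups did not overlap but the test was not passed. Psmb4 was at -0.15 and Psmb2 at -0.05, and only Psmb2 had overlapping groups in this ring. The 7 alpha subunits, which form the gated outer rings, had a median of -0.09, between -0.28 for Psma6 and -0.02 for Psma4. None was called, and the groups did not overlap in 2 of the 7 (background 13.9%).

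Psma8, the alpha subunit known from the testis, was the member with the largest difference. It had 6.03, 5.79 and 4.21 CPM in mTOR-/- and 1.56, 2.39 and 2.56 CPM in WT, from 55 to 75 and 22 to 36 counts. The mTOR-/- libraries were all above WT, but edgeR's test was not passed (log2 fold change 1.29, SE 0.36, adjusted p = 0.0854). It was called higher by DESeq2 (adjusted p = 0.0203) and by limma on log2(FPKM + 0.1) and log2(FPKM + 1) (0.0356 and 0.0293). Its ubiquitous paralog Psma7 had 104.4, 103.7 and 90.2 CPM against 106.8, 104.5 and 100.9. Reads that the 2 paralogs share could be assigned to either.

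Of the 3 immunoproteasome subunits, Psmb8 and Psmb9 had log2 fold changes below 0 and Psmb10 had 0.08. None was called, and differences between the 3 were not tested. Psmb8, the counterpart of Psmb5 (ENSMUSG00000024338, chromosome 17, 34197721 to 34201454), had 145.9, 159.9 and 138.6 CPM in mTOR-/- and 172.6, 184.7 and 179.7 in WT. The groups did not overlap, and the log2 fold change of -0.27 (SE 0.09, 17.3% lower) did not pass the test (adjusted p = 0.131, edgeR). Psmb9, the counterpart of Psmb6 (ENSMUSG00000096727, chromosome 17, 34181988 to 34187764), had 31.5, 37.1 and 43.8 CPM against 58.8, 39.0 and 44.3. Here the groups overlapped, WT replicate 1 was the highest, and the log2 fold change was -0.34 (SE 0.18, adjusted p = 0.327). Without WT replicate 1 it was -0.16. Psmb9 shares 212 exonic bases with Tap1 on the opposite strand, a gene with 6711 counts over the 6 libraries.

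Psmb10, the counterpart of Psmb7 (ENSMUSG00000031897, chromosome 8, 105935728 to 105938392), had 28.5, 29.6 and 24.8 CPM in mTOR-/- and 26.7, 26.8 and 24.9 in WT. Its groups overlapped, with a log2 fold change of 0.08 (SE 0.14, adjusted p = 0.781). Together the 3 genes took 0.0205%, 0.0229% and 0.0210% of counts in mTOR-/- and 0.0258%, 0.0248% and 0.0245% in WT, with Wilson 95% intervals of at most 0.000853 percentage points to either side. The sums did not overlap between groups. Psmb8 gave most of this sum in every library.

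**Figure D3:**
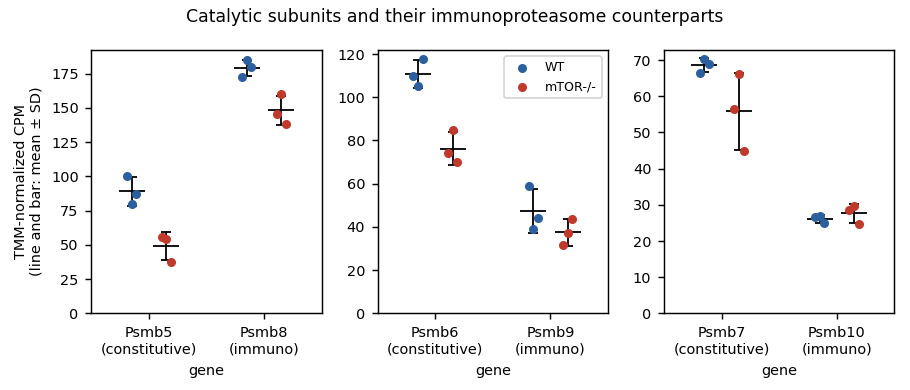
TMM-normalized CPM (vertical axis, from 0) of each constitutive proteolytic subunit and its immunoproteasome counterpart, 1 panel per pair and 1 point per library, with the mean ± SD (n = 3) of each group. The mTOR-/- points lie below all WT points for Psmb5, Psmb6, Psmb7 and Psmb8 and overlap them for Psmb9 and Psmb10.

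The balance between an immunoproteasome subunit and the constitutive subunit it replaces was read as the log2 ratio of their CPM within each library. Differences in this ratio between groups do not depend on gene length, while its level does. These ratios are described without a test. Psmb8 over Psmb5 was 1.38, 1.56 and 1.89 in mTOR-/- and 0.78, 1.21 and 1.04 in WT. All mTOR-/- libraries were higher, and the mean difference of 0.60 is a 1.51-fold higher ratio. Psmb10 over Psmb7 was -0.99, -1.16 and -0.86 against -1.32, -1.39 and -1.47. Again the groups did not overlap, with a difference of 0.39 (1.31-fold). Psmb9 over Psmb6 was -1.23, -1.19 and -0.67 against -0.90, -1.43 and -1.41. These groups overlapped, with a difference of 0.21. Psmb5 was further below WT than Psmb8, and Psmb7 was below WT while Psmb10 was at 0.08, so both ratios were higher with no immunoproteasome gene called higher.

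**Figure D4:**
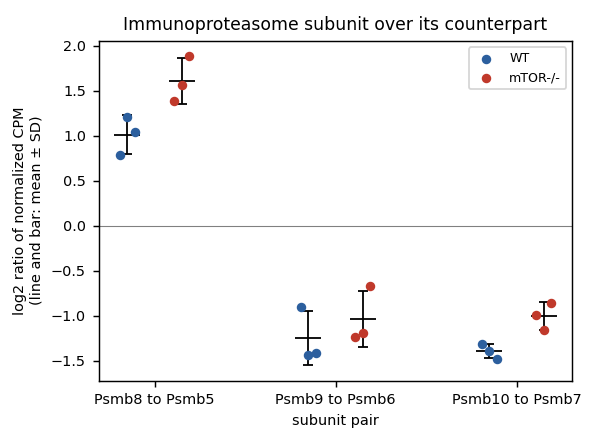
Log2 ratio of CPM (vertical axis) of each immunoproteasome subunit to the constitutive subunit it replaces, 1 point per library, with the mean ± SD (n = 3) of each group. The mTOR-/- libraries lie above WT for Psmb8 over Psmb5 and Psmb10 over Psmb7, and the groups overlap for Psmb9 over Psmb6.

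In the regulatory particle, Psmd8 was the called member. Psmd8, a lid subunit (ENSMUSG00000030591, chromosome 7, 29174188 to 29180701), had 191.3, 207.4 and 151.9 CPM in mTOR-/- and 252.4, 265.4 and 271.9 in WT. The groups lay apart, and Psmd8 fell by 30.3% (log2 fold change -0.52, SE 0.12, adjusted p = 0.0445, edgeR). The call was close to the threshold and was lost under upper-quartile normalization (adjusted p = 0.0523), with limma on log2(FPKM + 1) and log2(FPKM + 0.1) (0.0587 and 0.0617), and without mTOR-/- replicate 1 (0.0946) or WT replicate 1, 2 or 3 (0.124, 0.131 and 0.180). All 11 Psmd subunits of the particle were below 0 (background 49.4%), with a median of -0.17, and the groups did not overlap in 6 (background 13.9%). Psmd14, the deubiquitinase of the lid, had 76.8, 69.6 and 61.6 CPM against 86.9, 79.9 and 89.5 (log2 fold change -0.30, adjusted p = 0.173). Psmd12 and Psmd13, both lid subunits, were each at -0.26 (adjusted p = 0.223 and 0.226). Psmd13 shares 342 exonic bases with Sirt3 on the opposite strand, a gene with 1468 counts over the 6 libraries. The ubiquitin receptor Psmd4 was at -0.17, and the scaffold subunits Psmd1 and Psmd2 at -0.24 and -0.16.

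Of the 6 Psmc ATPases, 5 were below 0 with a median of -0.16, and none was called. Psmc3 was the furthest from WT. It had 68.3, 76.9 and 49.6 CPM in mTOR-/- and 84.0, 85.5 and 96.1 in WT, without overlap (log2 fold change -0.45, SE 0.16, adjusted p = 0.148). Psmc2 followed at -0.24 (adjusted p = 0.228) and Psmc6 at -0.18 (0.296). Psmc4 was at 0.03, with 72.1 ± 5.76 CPM in mTOR-/- and 70.4 ± 3.28 in WT (SD, n = 3). Psmc3 shares 215 exonic bases with Slc39a13 on the opposite strand, a gene with 2806 counts over the 6 libraries.

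Of the 7 assembly chaperones, which hold partial rings until they join, 6 were below 0. Their median was -0.28, and none was called. Psmg3, a partner in building the alpha ring, had 11.7, 16.2 and 8.80 CPM in mTOR-/- against 16.2, 17.97 and 20.6 in WT. The groups overlapped narrowly, and the test was not passed (log2 fold change -0.58, SE 0.23, adjusted p = 0.197). Psmd5, a chaperone of the ATPase ring, had 64.1, 55.3 and 63.1 CPM against 94.5, 67.6 and 85.0. Its groups did not overlap (log2 fold change -0.44, adjusted p = 0.119). Psmg4, the low-count partner of Psmg3, was at 0.03. By contrast, the activators and the inhibitor lay around WT, with 3 of 6 below 0, a median of 0.00473 and overlap in all 6. Psme1, an interferon-inducible activator subunit, had 69.6 ± 5.81 CPM in mTOR-/- and 67.9 ± 4.16 in WT (log2 fold change 0.04). Its partner Psme2 was at 0.04 and the near-identical copy Psme2b at -0.10, and how the counting split reads between these copies was not given in the sources used here. Psme3 and Psme4, activators of the nucleus, were at -0.02 and 0.03. The inhibitor Psmf1 was at -0.09 (SE 0.26), with 20.4, 32.9 and 15.1 CPM in mTOR-/- and 25.8, 20.9 and 25.9 in WT, and at 0.13 without mTOR-/- replicate 3.

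Levels were compared between genes only per length, with the deposited FPKM. In WT the median member was at 21.6 FPKM. The highest were Psmb1 at 152 ± 3.27 FPKM (SD, n = 3), Psma2 at 143 ± 3.15 and Psmd8 at 118 ± 3.59, and Psmb5 was at 102 ± 12.4. The lowest were Psma8 at 1.27 ± 0.305, Psmc3ip at 1.44 ± 0.216 and Psmf1 at 2.32 ± 0.277. Psmb1 and Psma2 stood apart from the next gene by more than their SDs. Psma8 and Psmc3ip did not differ beyond theirs. This order depends on the gene lengths behind the FPKM, which were not stated. The length implied by counts and FPKM was longer than the merged exons of GENCODE M21 for 37 of 49 members and longer than the whole locus for 5. On CPM per kilobase of merged exons, Psmb5 was the highest in WT at 99.1 ± 11.5, followed by Psmd8 at 86.1 ± 3.25 and Psma6 at 81.2 ± 5.52. Psmb1 moved from rank 1 to rank 20 and Psma2 from rank 2 to rank 19. Spearman's rho of the 2 scales over the 49 members was 0.891, given as a description since both rest on the same counts.

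On both scales, the level of Psmb8 in WT was below that of Psmb5 and Psmb9 below Psmb6. Psmb8 was at 46.2 ± 1.36 FPKM and Psmb5 at 102 ± 12.4. Psmb9 was at 7.46 ± 1.66 FPKM and Psmb6 at 35.4 ± 1.90. In mTOR-/- the corresponding levels were 38.7 ± 2.83 and 56.7 ± 11.4 FPKM, and 5.99 ± 1.03 and 24.7 ± 2.54 FPKM. Psmb10 and Psmb7 were close, at 20.4 ± 0.973 and 19.1 ± 0.460 FPKM in WT, and their order turned on the other scale, where Psmb10 had 15.3 ± 0.644 and Psmb7 20.0 ± 0.582 CPM per kilobase.

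**Figure D5:**
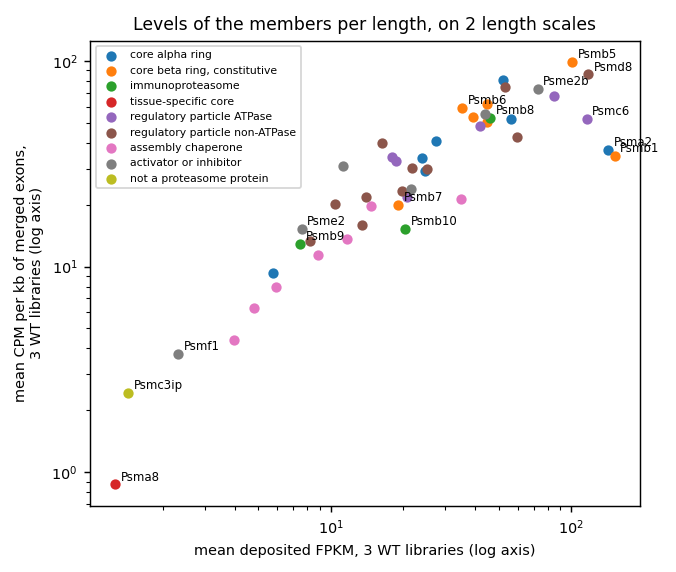
Mean level of each member in the 3 WT libraries, as deposited FPKM (horizontal, log axis) and as CPM per kilobase of merged exons (vertical, log axis), coloured by role. Psma8 is lowest on both scales, and Psmb1 and Psma2, the highest by FPKM, lie at ranks 20 and 19 on the vertical axis.

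Among other genes of the pathway, the ubiquitin gene Ubb showed the clearest difference. Ubb, which encodes a chain of ubiquitin units, had 150.5, 171.5 and 153.8 CPM in mTOR-/- and 380.8, 339.9 and 336.4 in WT. Every mTOR-/- library was below every WT library, and Ubb fell 2.22-fold (log2 fold change -1.15, SE 0.0965, adjusted p = 0.00043, edgeR). This call held in all alternatives run. Of the ubiquitin genes, activating enzymes and shuttle factors listed, 15 were tested, 0 were called higher and 1, Ubb, lower, with a median of -0.07. Over all tested genes, 2.18% were called higher and 1.87% lower, with a median of 0.00492. These values are the background for this and the other gene lists. In edgeR, Rps27a, which encodes ubiquitin fused to a ribosomal protein, was at -0.06 (adjusted p = 0.793).

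Of 12 tested assembly and associated factors outside the Psm symbols, 1 was called lower and the median was -0.12. This was Zfand2a, a stress-induced protein of the regulatory particle, with 99.3, 88.1 and 93.8 CPM in mTOR-/- and 124.5, 123.0 and 122.9 in WT (log2 fold change -0.40, SE 0.0913, adjusted p = 0.0450, edgeR). The call was lost without any 1 of the 6 libraries (adjusted p = 0.0559 to 0.173) and with limma on log2(FPKM + 0.1) and log2(FPKM + 1) (0.0585 and 0.0577). Pomp, the maturation factor of the core, was at -0.10 (adjusted p = 0.793), and the ubiquitin receptor Adrm1 at 0.01 (0.972). Of 10 transcription regulators, none was called by edgeR and the median was -0.01. Nfe2l1 had 65.8, 72.7 and 82.8 CPM in mTOR-/- and 352, 77.7 and 73.8 in WT. WT replicate 1 alone set its log2 fold change of -1.19 (adjusted p = 0.234), which was -0.05 without that library. Nfe2l2, the oxidative stress factor, was at 0.00196 (adjusted p = 0.994).

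Of 12 genes beside the immunoproteasome locus or in interferon signalling, none was called and the median was 0.02. Tap1, the peptide transporter that neighbours Psmb9, had 62.6, 73.0 and 79.9 CPM in mTOR-/- and 95.5, 91.3 and 90.7 in WT. Its groups did not overlap but it did not pass the test (log2 fold change -0.37, adjusted p = 0.110, edgeR). Tap2, in the same cluster, was at 0.04 (adjusted p = 0.859). The interferon regulatory factors Irf1 and Irf8, known inducers of immunoproteasome genes, were at 0.37 and 0.71 (adjusted p = 0.223 and 0.109, edgeR). For both, all mTOR-/- libraries lay above all WT libraries, but the test was not passed. Of 9 peptidases that trim or degrade peptides, 1 was called. Nrd1 (nardilysin) rose from 311, 316 and 308 CPM in WT to 410, 388 and 468 in mTOR-/- (log2 fold change 0.44, SE 0.0955, adjusted p = 0.0370, edgeR). The call was lost without WT replicate 1, 2 or 3 (adjusted p = 0.148, 0.121 and 0.175) and without mTOR-/- replicate 1 (0.0841). The median of the peptidases was -0.06.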

How the data were processed

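RNA of 6 libraries of sorted M-MDSCs (3 mTOR-/-, 3 WT), grouped by their labels, was analysed. The authors deposited whole-number read counts per gene and FPKM values. The methods of the study name Bowtie2, mm10, HTSeq and DESeq2, whereas the submitters' processing notes name HISAT2 2.0.4, StringTie 1.3.0 and 2 builds, GRCm38.p4 and mm9. Of the 49 members, all overlap the same gene in GENCODE M21 on GRCm38, the build also called mm10, and 37 have the same ends. Of 36 per-sample columns, 24 were repeats and not used. The deposited comparison columns (group means, fold changes, p and q values) were not used.

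Counts were analysed with R 4.3.3 and edgeR 4.0.16. Genes were kept by filterByExpr (minimum count 10, minimum total 15), normalized by TMM (factors 0.986 to 1.01), and compared by edgeR's quasi-likelihood test, with p-values adjusted by Benjamini-Hochberg over 12537 genes. The biological coefficient of variation was 19.0%. A gene was called at an adjusted p under 0.05, and was a DEG if its fold was also at least 2. CPM are counts scaled by the TMM-normalized library size. On simulated counts of 12333 genes with 200 changed, 88.2% of log2 changes of 1 and 100% of 2 were recovered, and 6.90% of calls were false. The changed genes were drawn only from those with a mean of at least 100 counts. No other sizes of change were simulated. These rates therefore do not cover smaller changes, such as the members' median log2 fold change of -0.16. An exact permutation test of 3 against 3 libraries cannot go below p = 0.1 and was not used.

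Members and gene lists were chosen with earlier results of these data known. Members were named where called, where they had the largest changes, and as the proteolytic pairs. Other members were named after their values were seen. Alternatives were DESeq2 1.42.0, limma 3.58.1 on log2(FPKM + 1) and log2(FPKM + 0.1), RLE and upper-quartile normalization, no filter, at least 10 counts in every sample, a replicate block, each library left out, and CPM per kilobase of merged exons for levels. Promoter windows are those of RefSeq (GRCm38.p6). Proteins were not analysed here, and some listed genes are not reported here.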

Additional observations from a re-analysis of the deposited data

How the results depend on the processing

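The number of members below 0 was 42 in every setting that kept all libraries, and 40 to 44 with 1 library left out. Members called higher numbered 1 (Psma8) with DESeq2, limma on log2(FPKM + 0.1) and limma on log2(FPKM + 1), and 0 to 0 with 1 library left out. Members called lower numbered 0 to 3 with 1 library left out: 0 without WT replicate 1, 2 or 3, 1 without mTOR-/- replicate 1, and 3 without mTOR-/- replicate 2 or 3. The replicate numbers gave no pairing, since the deviations of same-numbered libraries correlated at -0.0764, -0.0252 and -0.0608. With the replicate block, 1 member (Psmb5) was called lower while Psmb6 and Psmd8 lost the call (adjusted p = 0.0807 and 0.0867), as did Zfand2a (0.136) and Nrd1 (0.124), and 153 genes were called higher and 126 lower of all tested, against 273 and 234. DESeq2 called 635 and 509, of them 220 and 137 with a fold of at least 2, against 130 and 82, and limma on log2(FPKM + 1) called 74 higher with that fold. With 1 library left out these counts were 84 to 291 higher and 84 to 235 lower, and 61 to 132 and 51 to 97 with the fold. The difference in log2 ratio ranged over 0.46 to 0.71 for Psmb8 to Psmb5, 0.03 to 0.39 for Psmb9 to Psmb6 and 0.32 to 0.47 for Psmb10 to Psmb7.

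The log2 ratio of levels in WT moved from -1.13 by FPKM to -0.90 per kilobase of merged exons for Psmb8 to Psmb5, and reversed from 0.094 to -0.39 for Psmb10 to Psmb7, by the gene lengths used. Among named genes that were not called, the sign turned for Nfe2l2 with DESeq2 (-0.0017), RLE (-0.0016), at least 10 counts (-0.0055), no filter (-0.012) and the replicate block (-0.0041), and for Adrm1 with no filter (-0.0046). With 1 library left out it turned for Nfe2l2 (-0.096 to 0.060), Adrm1 (-0.035 to 0.071), Pomp (-0.32 to 0.049) and Psmf1 (-0.46 to 0.13). Why these signs and counts moved was not tested. The SE of the members' log2 fold changes was 0.0907 to 0.364, which limits what 3 libraries a group can show.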
